A study of Mus musculus with 8 samples.

Results

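The genes described here are 10 antioxidant genes of the NRF2 pathway: Nfe2l2, Hmox1, Nqo1, Gclc, Gclm, Txnrd1, Srxn1, Slc7a11, Gsr and Prdx1. They were listed by name, as the transcription factor and well-known genes under its control, with earlier results of these data known. Their 10 rows were found by symbol among the 55414 genes of a raw count table, and all 10 were abundant enough to be among the 15150 genes tested. The libraries hold poly(A) RNA of cultured mouse cardiac fibroblasts, the matrix-building stromal cells of the heart, after an adenovirus for green fluorescent protein (GFP) or one for Has2. Has2 encodes hyaluronan synthase 2, a membrane enzyme that makes hyaluronan, a long polysaccharide of the extracellular matrix.

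Each virus had 4 libraries, of which replicates 1 and 2 came from female and replicates 3 and 4 from male mice. The labels give strain C57BL/6J and genotype wild type for all 8 libraries, whereas the protocol names Has2fl/fl animals, so every culture, controls included, may carry a floxed Has2 gene. All cultures were at passage 2, were starved of serum for 24 h, met the virus for 5 h, and were collected 48 h after new medium with bFGF and TGFb at 20 ng/mL. A GFP library and a Has2 virus library with the same replicate number carry the same preparation identifier, and they are compared below as a pair. The sexes also differ in the series of those identifiers, and the effects of sex and of preparation series cannot be told apart. No untreated culture is among the 8 libraries, and the labels give no age of the mice.

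NRF2, the protein of Nfe2l2, is a transcription factor that KEAP1 binds in the cytoplasm and hands to a CUL3 ubiquitin ligase for destruction. Oxidants and electrophiles modify cysteines of KEAP1, NRF2 escapes destruction, and with a small MAF partner it binds antioxidant response elements near genes for glutathione synthesis, thiol reduction, quinone reduction and haem breakdown. Because this control acts mostly on the protein, the transcripts of its target genes are commonly read as its output. In fibroblasts the same genes also set how the cell copes with the hydrogen peroxide that TGF-beta signalling produces.

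The core of the response element was looked for in the promoters, since that element is what links the members to NRF2. The letters searched were TGACNNNGC on both strands, in windows from 250 bases before to 50 bases after the transcript start (RefSeq, GRCm38.p6). For 7 members 9 windows were at hand, 3 of them for Txnrd1, and 5 of the 9 held the letters, 1 in each of 5 members. Of all 32851 windows of the same length 12.4% held them. The matches are printed below in the orientation of their gene, with the matched letters, or their reverse complement, in capitals.
Nfe2l2, chr2:75704885-75704913, minus strand, beginning 240 bases before the start: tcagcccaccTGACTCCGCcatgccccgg
Gclm, chr3:122245413-122245441, plus strand, beginning 134 bases before the start: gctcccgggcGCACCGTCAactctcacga
Txnrd1, chr10:82859104-82859132, plus strand, beginning 92 bases before the start: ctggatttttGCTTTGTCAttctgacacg
Srxn1, chr2:152105542-152105570, plus strand, at position 29 after the start: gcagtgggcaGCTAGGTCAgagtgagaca
Prdx1, chr4:116685456-116685484, plus strand, beginning 133 bases before the start: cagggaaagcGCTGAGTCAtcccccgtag
The Prdx1 match reads TGACTCAGC on the other strand, and these letters also hold TGANTCA, the letters bound by AP-1 factors. TGACTCAGC was found in 0.454% of all windows and TGANTCA in 7.81%. The windows of Nqo1 and Slc7a11 and the other 2 of Txnrd1 held no match, and Hmox1, Gclc and Gsr were without a window. A match of letters is not a measured binding site.

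Libraries held 46981231 to 55795187 counts. Values below are CPM, counts scaled to library size with TMM factors, and ratios and fold changes are on the log2 scale, Has2 virus over GFP virus. Has2 itself stood at 7.36 to 25.2 CPM in the GFP libraries and at 3209 to 9533 CPM in the Has2 virus libraries, and rose by 8.49 (SE 0.57, edgeR adjusted p = 0.0011). These counts hold endogenous and viral transcripts together. All 13 fibroblast markers were measured, with a summed level of 30344 to 44414 CPM under GFP and 30852 to 48864 CPM under the Has2 virus. All 17 macrophage markers had counts, though Cd163 had only 1 to 16 per library. They summed to 1136 to 2812 CPM under GFP and to 1055 to 2999 CPM under the Has2 virus. Lyz2 alone held 565 to 1282 CPM of these sums. Of 10 cardiomyocyte markers Myl7 and Pln were at 0 in every library, and the list summed to at most 9.17 CPM. In bulk RNA fewer cells of a type and less RNA per cell cannot be told apart.

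No NRF2 gene passed the test for an effect of the Has2 virus. edgeR's quasi-likelihood test on the 8 libraries called 0 of the 10 members at an adjusted p under 0.05, and 0 had an unadjusted p under 0.05. Across all genes tested it called 0.0066%, which was Has2 alone, and 2.56% had an unadjusted p under 0.05. DESeq2 called 0 members and 0.0462% of all genes, or with the replicate number as a block 0 members and 0.403% of all genes, and limma-voom also called 0 members either way. With the block and a correction for base composition described below, edgeR called 0 members and 0.0132% of all genes, and 3 members, against 12% of all genes, had an unadjusted p under 0.05. The members' fold changes ran from -0.36 to 0.10 with a median of -0.02, and the median over all genes was -0.01. The 2 groups of libraries overlapped for every member. The 95% intervals ran from -0.18 to 0.31 for Txnrd1, the narrowest, to -1.35 to 0.63 for Slc7a11, the widest. With the block those of the same genes were -0.13 to 0.27 and -1.17 to 0.17, and that of Hmox1 was -0.08 to 0.42 in place of -0.72 to 0.93.

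**Figure D1:**
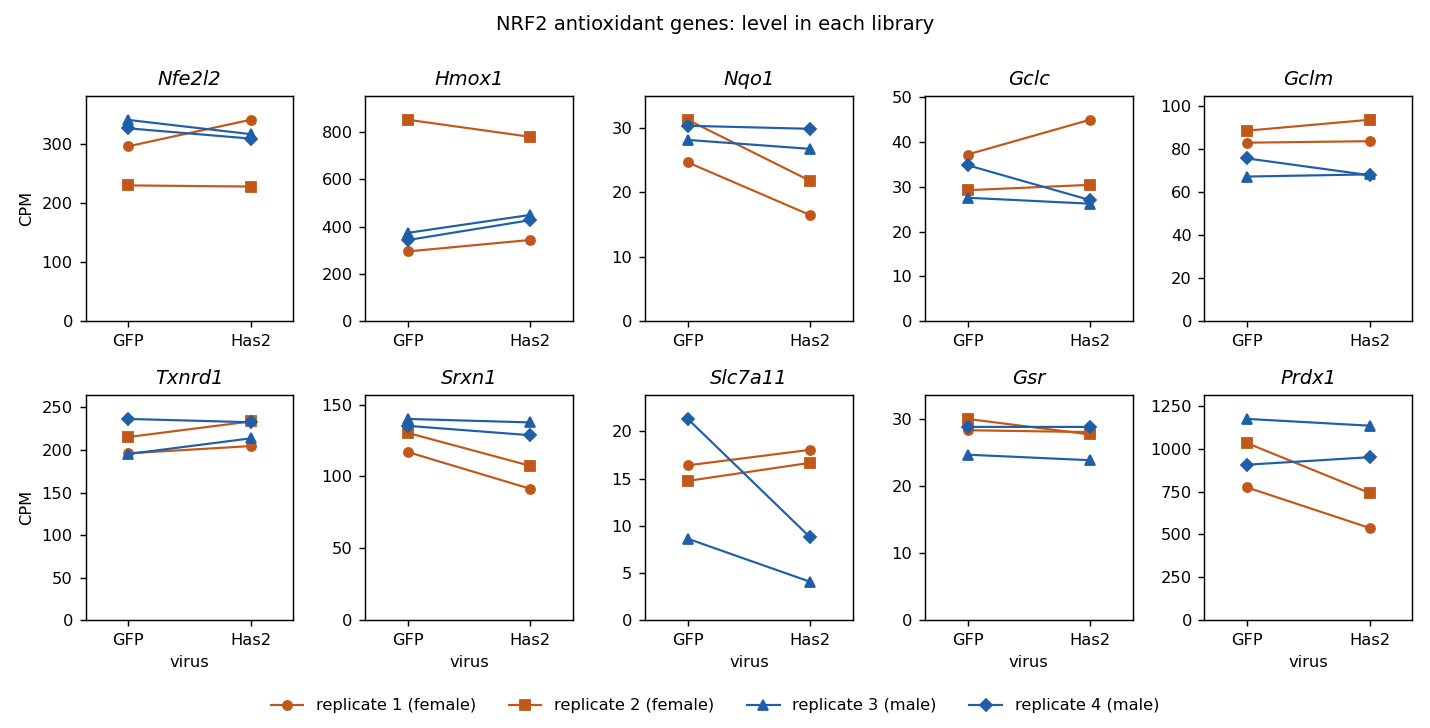
CPM of each NRF2 gene in each library (linear axes from 0, 1 panel per gene), by virus, with points for libraries, a line joining libraries of the same replicate number and colours for sex. The GFP and Has2 virus libraries overlap in every panel, and Hmox1 stands apart in replicate 2 under both viruses, at 851 and 779 CPM.

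Nfe2l2, the transcription factor, had a fitted change near 0. It stood at 296, 230, 341 and 327 CPM in GFP replicates 1 to 4 and at 341, 228, 317 and 309 CPM in the Has2 virus replicates. Replicate 2 was the lowest under either virus, and neither group was above the other. That change was 0.00 (SE 0.17, 95% interval -0.37 to 0.38, unadjusted p = 0.991). Keap1, which was not among the members, stood at 81.9 ± 5.55 CPM (SD, n = 4) under GFP and 88.9 ± 7.68 CPM under the Has2 virus, a change of 0.12 (SE 0.11).

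Glutathione is made from cystine that enters the cell through SLC7A11, by the ligase whose catalytic and modifier subunits are GCLC and GCLM, and glutathione reductase, the product of Gsr, regenerates it. Slc7a11 was the least abundant member and the most variable between pairs. It stood at 16.4, 14.8, 8.64 and 21.3 CPM in GFP replicates 1 to 4 and at 18.1, 16.7, 4.09 and 8.79 CPM with the Has2 virus. The female pairs were slightly higher with the Has2 virus and the male pairs clearly lower. The pooled change was -0.36 (SE 0.44, 95% interval -1.35 to 0.63, unadjusted p = 0.432), behind which stood 220 to 1078 raw counts per library.

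Gclc showed a weaker split in the same direction. It was at 37.2, 29.3, 27.6 and 34.9 CPM under GFP and 45.0, 30.5, 26.3 and 27.1 CPM under the Has2 virus. Its pair ratios were 0.27, 0.06, -0.07 and -0.36, positive in the female and negative in the male pairs, with a pooled change of -0.00 (SE 0.19). Gclm stood at 82.8, 88.4, 67.1 and 75.5 CPM under GFP and 83.5, 93.5, 68.1 and 67.7 CPM with the Has2 virus. The groups overlapped, and replicates 1 and 2 were above replicates 3 and 4 under both viruses. The change of Gclm was -0.00 (SE 0.15). Gsr was at 28.3, 30.0, 24.6 and 28.8 CPM under GFP and 28.0, 27.6, 23.8 and 28.8 CPM under the Has2 virus. All 4 pair ratios of Gsr were at or below 0, but by at most 0.12, and the change was -0.04 (SE 0.12).

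Txnrd1, Srxn1 and Prdx1 belong to the thioredoxin arm: thioredoxin reductase 1 recharges thioredoxin with NADPH, peroxiredoxin 1 destroys hydrogen peroxide, and sulfiredoxin repairs peroxiredoxins that have been overoxidised. Txnrd1 was at 196, 215, 195 and 236 CPM under GFP and 205, 233, 214 and 232 CPM with the Has2 virus, a change of 0.07 (SE 0.11, 95% interval -0.18 to 0.31). Its libraries overlapped and lay close together. Srxn1 was at 117, 130.2, 140.0 and 135 CPM under GFP and 91.4, 107, 138 and 129 CPM under the Has2 virus. It was lower with the Has2 virus in all 4 pairs, by 0.28 or more in the female and by 0.07 or less in the male pairs, and the pooled change was -0.17 (SE 0.15, unadjusted p = 0.276).

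Prdx1 was the most abundant member. It stood at 774, 1031, 1173 and 906 CPM under GFP and at 538, 742, 1133 and 949.8 CPM under the Has2 virus. The female Has2 virus libraries were the lowest of the 8, and the male libraries did not separate by virus. The pooled change was -0.21 (SE 0.23, 95% interval -0.72 to 0.31).

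Nqo1, a quinone reductase and the classical readout of NRF2, had the same shape. It was at 24.6, 31.2, 28.1 and 30.3 CPM under GFP and at 16.5, 21.8, 26.7 and 29.8 CPM with the Has2 virus. The female pairs differed by -0.58 and -0.52, the male pairs by -0.07 and -0.02. The pooled change was -0.27 (SE 0.19, unadjusted p = 0.186), and with the replicate block -0.30 (SE 0.13, unadjusted p = 0.06, adjusted p = 0.648).

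Hmox1, the inducible haem oxygenase, varied more between preparations than between viruses. It stood at 295, 851, 373 and 343 CPM under GFP and at 343, 779, 449 and 427 CPM under the Has2 virus. Replicate 2 was above all others under both viruses, and in the other 3 pairs the Has2 virus library was higher by 0.22 to 0.32. These include both male pairs, whose ratios carried a trend with base composition that is described below. The pooled change was 0.10 (SE 0.37, 95% interval -0.72 to 0.93), and within pairs it was 0.17 (SE 0.11, adjusted p = 0.667). Without GFP replicate 2 the change was 0.57, and without Has2 virus replicate 2 it was -0.20, neither of which passed the test. Macrophages also express Hmox1, and the macrophage markers were lowest in replicate 2, at 1136 and 1055 CPM, against 2038 to 2999 CPM in the other 6 libraries. Their part in the Hmox1 values was not tested.

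**Figure D2:**
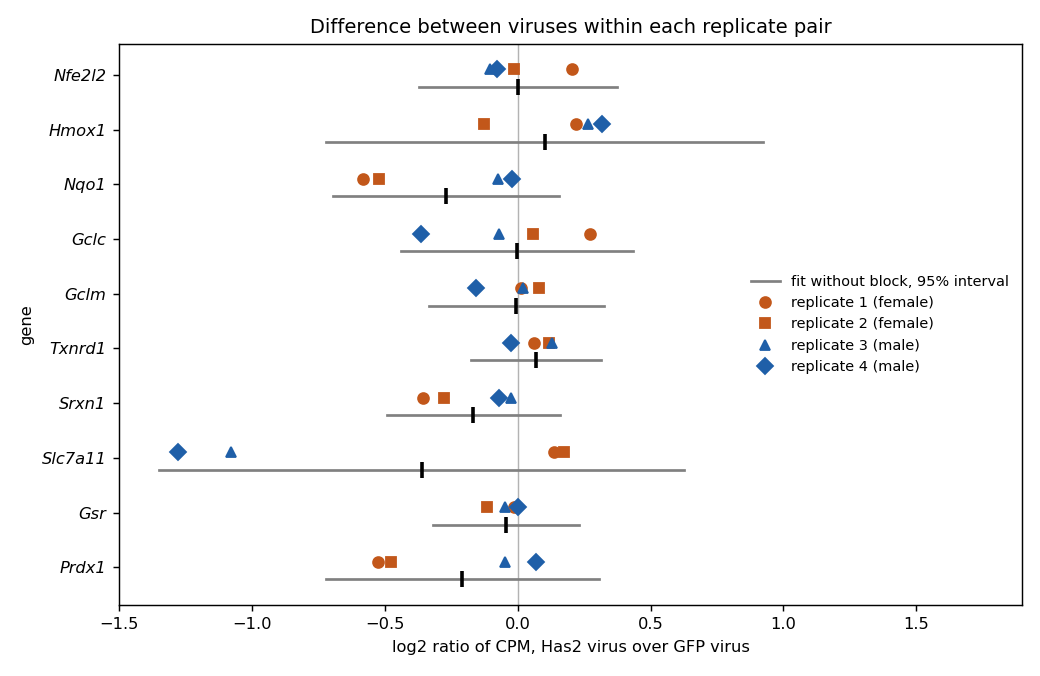
Log2 ratio of CPM, Has2 virus over GFP virus, for each NRF2 gene in each of the 4 pairs (points, coloured by sex), above the fitted change without the block (tick) and its 95% interval (grey bar). Slc7a11 reaches -1.28 and -1.08 in the male pairs, while Nqo1 and Prdx1 lie between -0.58 and -0.48 in the female pairs.

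Read pair by pair, 3 of the 10 members (Nqo1, Srxn1 and Gsr) were lower with the Has2 virus in all 4 pairs and 0 were higher in all 4. Over all genes tested 7.96% were lower and 9.16% higher in all 4 pairs. No test was made on these signs. Preparations differed as well. Averaged over both viruses, the means of the 4 preparations spanned 1.53 log2 units for Slc7a11, 1.36 for Hmox1, 0.84 for Prdx1 and 0.23 for Txnrd1. For Nqo1 the span was 0.58, but these means include the lower Has2 virus values of the female pairs. Under GFP alone Nqo1 ran from 24.6 to 31.2 CPM.

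Per length, the members covered a wide range of levels, and their order was the same under both viruses. In CPM per kilobase (RPKM), from CPM and the longest transcript in GENCODE M21, Prdx1 led with 423 ± 74.4 (SD, n = 4) under GFP. Hmox1 followed at 297 ± 165, and its libraries overlapped those of Prdx1. Nfe2l2 stood at 121 ± 19.9, Txnrd1 at 58.2 ± 5.37 and Srxn1 at 46.4 ± 3.54 RPKM, each separate from its neighbours in the order. Nqo1 was at 18.4 ± 1.89 and Gclm at 14.0 ± 1.65 RPKM, which did not overlap under GFP but did under the Has2 virus, at 15.3 ± 3.77 and 14.0 ± 2.24 RPKM. Gsr, at 10.4 ± 0.857, and Gclc, at 9.42 ± 1.33 RPKM, overlapped under both viruses. Slc7a11 was last at 1.66 ± 0.568 RPKM under GFP and 1.29 ± 0.718 RPKM under the Has2 virus.

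The pair ratios raise a further comparison, that of the virus effect in the male pairs with that in the female pairs. Without the block, edgeR called 0 of the 10 members and 0% of all genes for this difference; 0 members, against 13.3% of all genes, had an unadjusted p under 0.05. With the replicate number as a block it called 3 members, against 29.5% of all genes (11.5% with a higher and 18% with a lower ratio in males). The members' share was therefore near that of all genes. Slc7a11 differed by -1.35 (SE 0.15, adjusted p = 0.000119), and without the block by -1.38 (SE 0.65, adjusted p = 0.42). Nqo1 differed by 0.50 (SE 0.13, adjusted p = 0.0126, without the block 0.476) and Prdx1 by 0.51 (SE 0.13, adjusted p = 0.0136, without the block 0.549). The blocked fit has 2 residual degrees of freedom, since each sex is 2 pairs.

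In the same blocked fit each sex has its own virus effect. In the female pairs Nqo1 fell by 0.55 (SE 0.09, adjusted p = 0.00935), Prdx1 fell by 0.50 (adjusted p = 0.0148) and Srxn1 fell by 0.32 (adjusted p = 0.0462). These are 1.47-fold, 1.41-fold and 1.25-fold lower levels, and 4.83% of all genes were called lower in the female pairs. In the male pairs Slc7a11 fell by 1.19 (SE 0.11, adjusted p = 2.1e-05), a 2.28-fold lower level, where 19.2% of all genes were called lower. Its value in the female pairs was 0.16 (SE 0.10, adjusted p = 0.372). The values of Nqo1 and Prdx1 in the male pairs were -0.05 and 0.01.

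The calls of Nqo1 and Prdx1 for a difference between the sexes were lost when a male pair was left out, as were many calls among all genes. Leaving out replicate 3 gave adjusted p values of 0.0704 and 0.0667, with 17.5% of all genes called, and leaving out replicate 4 gave 0.0899 and 0.131, with 15.5% called. The differences were then 0.48 to 0.57. Slc7a11 was at -1.43 to -1.21 whichever pair was left out. Each of these fits has only 1 pair in the sex that lost a pair. They also keep the trend with base composition described below, so they are a weak check. Hmox1 was called when replicate 1 was left out, at 0.44 (adjusted p = 0.0375, 32.8% of all genes called), and Gclc when replicate 2 was, at -0.49 (adjusted p = 0.00852, 31.8% called).

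**Figure D3:**
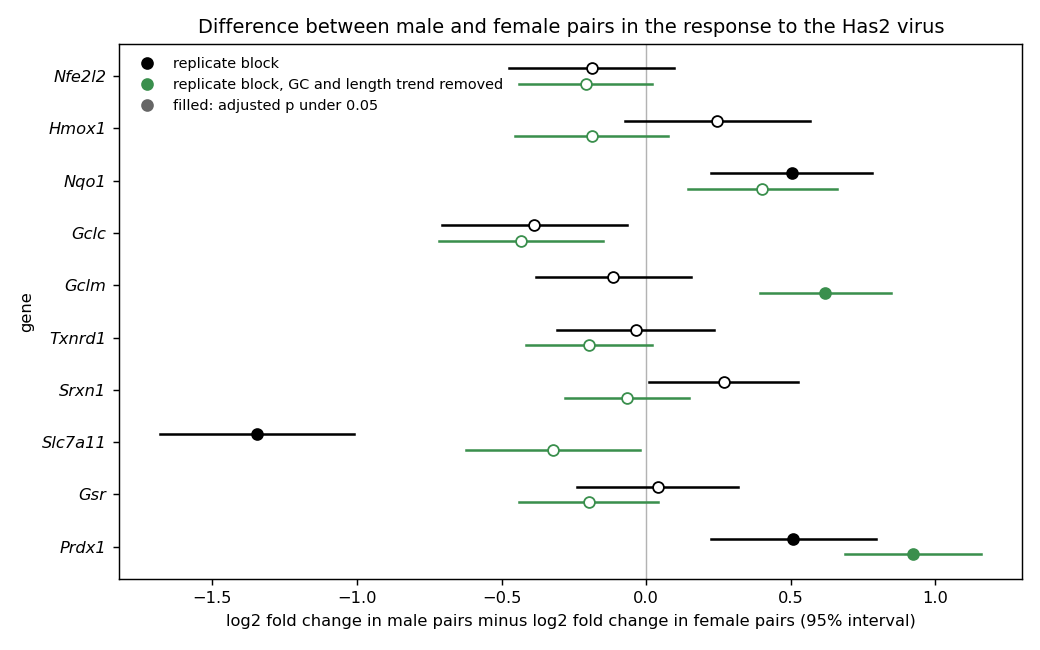
Male minus female difference of the log2 virus effect for each NRF2 gene in the blocked fit, with 95% intervals, as counted and after removal of a trend with GC content and transcript length (filled points: adjusted p under 0.05). Slc7a11 moves from -1.35 to -0.32 and Gclm from -0.11 to 0.62 when the trend is removed, and Nqo1 moves from 0.50 to 0.40 and is no longer called.

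The male pairs carried a trend with base composition across all genes that touched these results. Over 15123 genes the pair ratio and the GC content of the longest transcript had a Spearman rho of -0.22 and -0.17 in the female pairs and 0.66 and 0.64 in the male pairs; genes of a library share its composition, so this is a description. Slc7a11, at 40.7% GC, lies in the decile of genes lowest in GC, whose median ratios were 0.11, 0.09, -0.93 and -0.84 in pairs 1 to 4. Its own ratios were 0.14, 0.18, -1.08 and -1.28. Prdx1 and Gclm, at 42.3% and 42.1% GC, lie in the second-lowest decile, with medians of 0.07, 0.08, -0.54 and -0.48. Against those medians Prdx1 was low in the female pairs and high in the male pairs. Nqo1, at 46.7% GC, lies in the fourth decile, with medians of 0.03, 0.01, -0.11 and -0.13. Hmox1, at 53.3% GC, lies in decile 7, with medians of -0.04, -0.05, 0.17 and 0.15. Its own ratios were 0.22, -0.13, 0.27 and 0.32.

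**Figure D4:**
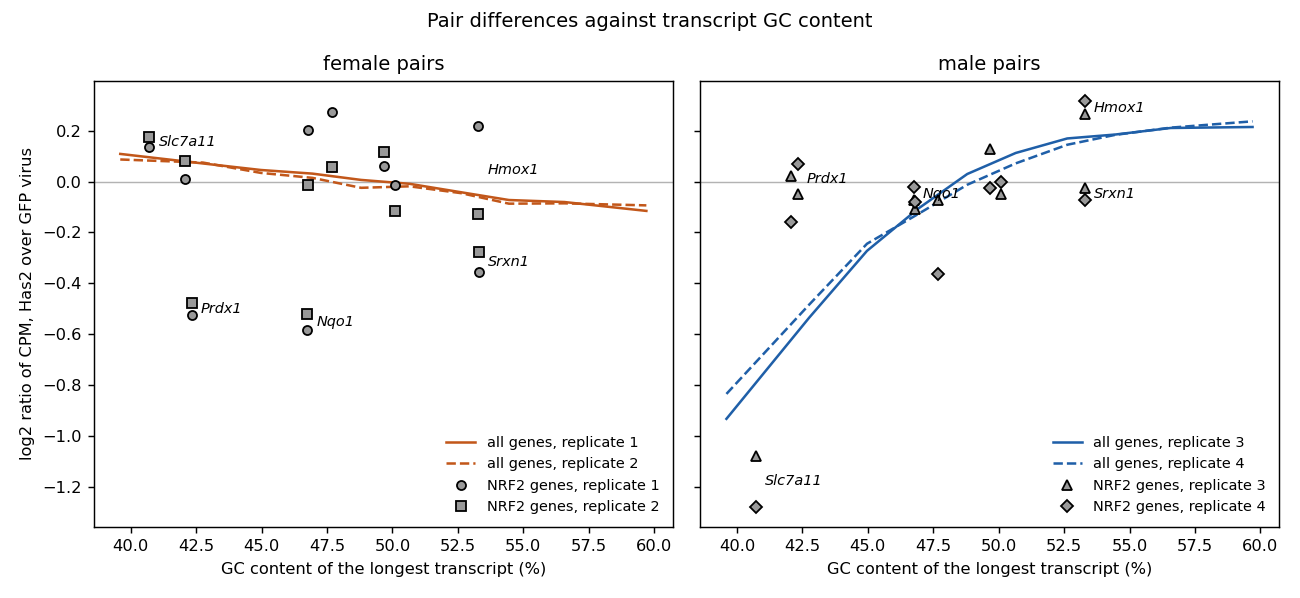
Median log2 ratio, Has2 virus over GFP virus, of all tested genes in deciles of GC content for each pair (lines, female pairs and male pairs in separate panels, GC content in % on the x axis), with the NRF2 genes as points. The lowest decile stands at 0.11 and 0.09 in the female and at -0.93 and -0.84 in the male pairs. Slc7a11 has the sign of its decile in all 4 pairs and lies below it in the male pairs, at -1.08 and -1.28.

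A spline in GC content and log2 length was removed from each library and the blocked fit repeated. It called 11.2% of all genes for the difference between the sexes, and 2 members. These were Prdx1, at 0.92 (SE 0.10, adjusted p = 0.00262), and Gclm, at 0.62 (SE 0.10, adjusted p = 0.00687), whose sign was opposite to that before removal, -0.11. Slc7a11 was at -0.32 (SE 0.13, adjusted p = 0.164) and Nqo1 at 0.40 (SE 0.11, adjusted p = 0.0552), neither of them called. Gclc was not called either, at -0.43 (SE 0.13, adjusted p = 0.0585), against -0.39 before removal. Within the female pairs Nqo1 fell by 0.44 (adjusted p = 0.0291) and Prdx1 fell by 0.48 (adjusted p = 0.0171), where 2.4% of all genes were called lower. Srxn1 was at -0.26 there (adjusted p = 0.0757).

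In the male pairs, after removal, 10.8% of all genes were called lower and 3.44% higher. Slc7a11 fell by 0.46 (adjusted p = 0.014) and Srxn1 fell by 0.32 (adjusted p = 0.0125), while Prdx1 rose by 0.44 (adjusted p = 0.00489) and Gclm rose by 0.48 (adjusted p = 0.00281) relative to the removed trend. As counted, Prdx1 was at 0.01 (adjusted p = 0.95) and Gclm at -0.07 (adjusted p = 0.593) in the male pairs. After removal Srxn1 was thus similar in both sexes. Its pooled blocked change was then -0.29 (SE 0.06, unadjusted p = 0.00151, adjusted p = 0.222). As counted, Srxn1 was at -0.32 in the female pairs and at -0.05 (adjusted p = 0.696) in the male pairs. Hmox1 was at 0.05 for females and 0.29 (adjusted p = 0.0606) for males as counted. After removal these values were 0.20 (adjusted p = 0.208) and 0.01 (adjusted p = 0.95). The part of base composition in the sex difference was not tested beyond this removal. The share of mitochondrial counts moved with it too, from 1.02% to 1.88% and from 0.662% to 0.909% (GFP to Has2 virus) in the female pairs and from 0.702% to 0.417% and from 0.94% to 0.603% in the male pairs, and its part was not tested.

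The wider pathway was read from 9 further lists of redox and stress genes. None of them had a member called by edgeR for the virus, with 0 to 2 members per list at an unadjusted p under 0.05, and their medians lay between -0.07 and 0.03. Among the regulators of NRF2, 17 of 18 genes were tested, with a median of -0.00 and 1 gene at an unadjusted p under 0.05. This was Trim21, a ubiquitin ligase known to modify p62, a protein that binds KEAP1, at 15.6 ± 2.8 CPM under GFP and 10.9 ± 1.71 CPM under the Has2 virus (n = 4). Its groups did not overlap, as for 1.51% of all genes with lower Has2 virus libraries, but its change of -0.52 (SE 0.18) did not pass adjustment. Maff, a small MAF partner, was at 0.09 (SE 0.11).

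Of the 19 thioredoxin and peroxiredoxin genes, Txn1, thioredoxin itself and the substrate of thioredoxin reductase 1, stood out. It was at 213, 276, 304 and 253 CPM under GFP and at 155, 184, 195 and 200.04 CPM with the Has2 virus. Every Has2 virus library lay below every GFP library, as for 1.51% of all genes, and the pair ratios were -0.46, -0.58, -0.64 and -0.34. The change was -0.51 (SE 0.14, unadjusted p = 0.00497); with the replicate block its adjusted p was 0.595 in edgeR and 0.529 in limma-voom. DESeq2 with the block called it at -0.49 (adjusted p = 0.00879), the only gene of these lists that it called, and without the block gave an adjusted p of 0.428. The male minus female difference of Txn1 was 0.03 in the blocked fit, and once the trend described above was removed, its virus effect was -0.44 (adjusted p = 0.13).

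Txnl1, a thioredoxin-like protein of the proteasome, was at -0.24 (SE 0.10, unadjusted p = 0.0359), but at 0.08 after the trend was removed. Prdx4, the peroxiredoxin of the endoplasmic reticulum, was at -0.21 (SE 0.19), with pair ratios of -0.49, -0.50, -0.01 and 0.10, the pattern of Prdx1. The peroxiredoxins were then read as a family, a choice made after their values were seen. All 6 genes, Prdx1 to Prdx6, had a higher ratio in the male pairs in the blocked fit, by 0.39 (Prdx3) to 0.72 (Prdx2), with adjusted p values of 0.00197 to 0.0415, where 11.5% of all genes were called higher. With the trend removed 2 of the 6 were called, against 4.18% of all genes, Prdx1 at 0.92 and Prdx2 at 0.38 (adjusted p = 0.0432). Without the block none of the 6 was called, with adjusted p values of 0.459 to 0.639.

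The glutathione and cystine list had 17 tested genes and a median of -0.01. Gpx8, a peroxidase of the endoplasmic reticulum, was at 292 ± 30.2 CPM under GFP and 236 ± 6.77 CPM under the Has2 virus (n = 4). Its groups did not overlap, as for 1.51% of all genes in this direction. The change of Gpx8 was -0.31 (SE 0.11, unadjusted p = 0.0172). After removal of the trend it was at -0.11. Gpx3, the secreted glutathione peroxidase, was higher in all 4 pairs, at 0.22 (SE 0.24). The 24 genes of conjugation and carbonyl reduction had a median of 0.03. Of these the glutathione transferases Gsta4, at -0.57 (SE 0.24, unadjusted p = 0.0406), and Gsta3, at -0.82 (SE 0.36, unadjusted p = 0.0459), were lower with the Has2 virus before adjustment. Gsta4 stood at only 1.45 to 2.99 CPM, and its ratio in pair 3 was 0.14. The pair ratios of Gsta3 were -2.26, -0.61, -0.14 and -0.15, and with the trend removed it was at -0.45 (SE 0.42). Gsta3 was at -1.09 to -0.27 when a library or pair was left out.

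The 12 genes of NADPH supply, on which the enzymes of Txnrd1 and Gsr depend, had a median of 0.03 and 0 members at an unadjusted p under 0.05. G6pdx, which feeds the pentose phosphate pathway, was at 0.17 (SE 0.11), Idh1 at -0.16 (SE 0.15) and Idh2 at 0.14 (SE 0.17). Among 13 tested iron and haem genes the iron exporter Slc40a1, at -0.54 (SE 0.31), and the haem exporter Flvcr1, at -0.39 (SE 0.25), were lower in all 4 pairs, and the haem transporter Slc48a1, at 0.17 (SE 0.12), was higher in all 4. The 10 tested genes of superoxide and hydrogen peroxide had a median of 0.02. Sod3, the extracellular superoxide dismutase, was higher in all 4 pairs, at 0.36 (SE 0.44). With the replicate block in edgeR, Sod3 was at 0.38 (SE 0.10, adjusted p = 0.648). The NADPH oxidase genes Cybb and Ncf1 were at -0.33 (SE 0.52) and 0.15 (SE 0.46). Both were lowest in replicate 2 under either virus, as were the macrophage markers, and the part of macrophages in these values was not tested.

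ATF4, the amino acid stress factor, shares Slc7a11 with NRF2, so its other targets were read beside it. The 20 genes had a median of 0.02, and their pair medians were -0.09, -0.18, 0.19 and 0.20, with the male pairs above the female pairs. With the GC trend removed the female median was -0.01 and the male median -0.05. The median GC content of the list was 54.6%, against 40.7% for Slc7a11. Chac1, which breaks down glutathione, was at 0.27 (SE 0.30) and the arginine importer Slc7a1 at 0.14 (SE 0.18), both higher in all 4 pairs. Aldh18a1, of proline synthesis, was at 0.15 (SE 0.17). A list of 25 further NRF2 targets, which overlaps the others, had a median of 0.03, pair medians of -0.10, -0.15, 0.18 and 0.24, and 2 genes at an unadjusted p under 0.05.

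**Figure D5:**
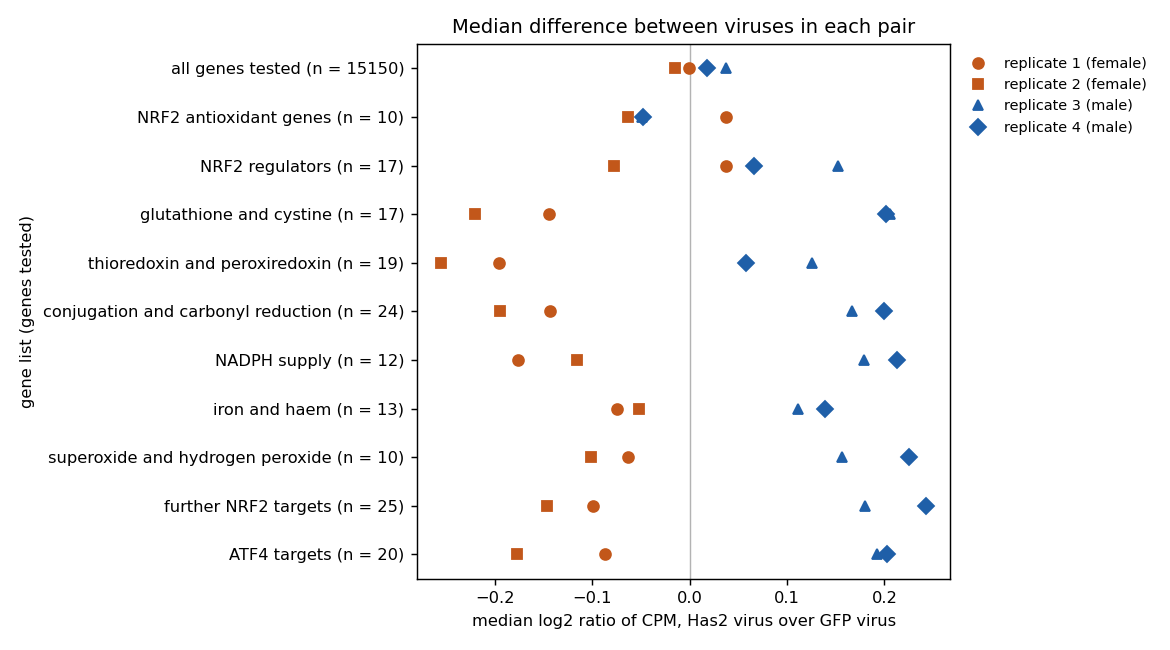
Median log2 ratio, Has2 virus over GFP virus, of each redox gene list in each of the 4 pairs, with all genes tested for comparison and colours for sex, as counted and without removal of the GC trend. The glutathione list runs from -0.22 and -0.14 in the female to 0.20 and 0.21 in the male pairs, whereas the medians of all genes lie between -0.02 and 0.04.

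In these 9 lists the median was below 0 in the female pairs and above 0 in the male pairs, except for the regulators of NRF2, at 0.04 in pair 1. With the trend removed the list medians ran from -0.15 to -0.01 in the female pairs and from -0.10 to 0.02 in the male pairs, where the glutathione list alone was above 0, and the medians of all genes were -0.02 and -0.09. In the blocked fit for the difference between the sexes 11.5% of all genes were called higher in males and 18% lower. The counts were 9 and 3 of 19 thioredoxin genes and 6 and 0 of 17 glutathione genes. They were 6 and 0 of 24 conjugation genes and 5 and 0 of 12 NADPH genes. The regulators had 2 and 3 of 17, iron and haem 3 and 3 of 13, and superoxide 4 and 2 of 10. The further NRF2 targets had 9 and 0 of 25 and the ATF4 targets 8 and 1 of 20. With the trend removed the thioredoxin, glutathione, conjugation and NADPH lists had 3 and 1, 1 and 0, 3 and 0, and 0 and 0. The regulators had 3 and 1, iron and haem 2 and 2, and superoxide 3 and 0. The further targets had 1 and 0 and the ATF4 targets 2 and 0, against 4.18% and 7.04% of all genes. Without the block edgeR called 0 genes of any list for this difference, and DESeq2 called 0 to 2 per list (4.5% of all genes).

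Some members share sequence with other genes. Prdx1 shares 50-base words with 3 processed pseudogenes, up to 7.48% of its words, and these stood at 0.668 CPM or less. For Slc7a11 and Gclm, other genes were counted once per type of transcript, so some were counted more than once. Slc7a11 shares such words with 297 of these entries, each holding up to 0.512% of its words, and Gclm with 66, up to 0.397%. The most abundant genes among them stood at 1703 and 658 CPM. The 7 other members shared none. Gclm was the only member whose exons overlap other annotated genes, Gm17494 on the opposite strand at 0.0147 CPM and Gm6061 at 0.144 CPM. What part of a member's counts came from shared reads was not measured, and how the authors' counting divided them is not given in the sources used here.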

How the data were processed

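The deposited table gives raw counts for 8 libraries, 1 row per Ensembl gene. The submitters' processing notes name FastQC 0.10.1, HTSeq 0.10.0 and the build mm39 (GRCm39). The library kit kept strand, per the labels' protocols. No aligner, annotation release or counting strand is given in the sources used here. Symbols came from GENCODE M21 by Ensembl identifier; 52081 of 55414 matched, and the rest held 0.405% to 0.871% of counts.

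Groups, replicate numbers and sex came from the labels. Separate animals behind the cultures are not stated, and the p values therefore reflect the spread of these 8 libraries alone, which may be technical. Libraries with the same replicate number carry the same preparation identifier, and after subtracting group means they correlated at 0.58, 0.62, 0.53 and 0.44 for replicates 1 to 4, so the numbers pair them.

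The virus effect was tested with edgeR 4.0.16 (R 4.3.3): quasi-likelihood F-test, TMM scaling, default expression filter, all 8 libraries, group as the only term. Benjamini-Hochberg adjustment ran over the 15150 genes tested, with a threshold of 0.05. Sex and its interaction with virus were added for the difference between sexes. Alternatives were the replicate block, RLE scaling, library totals, other expression filters, DESeq2 1.42.0, limma-voom (limma 3.58.1), removal from each library of a trend fitted by splines with 5 degrees of freedom in GC content and in log2 transcript length, and leaving out each library or pair. Limma-voom with the block, pairs left out with the block and effects per sex with the block were added after seeing the data. The scripts were tested on simulated data.

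All members are named, and of each other list up to 3 tested genes with the smallest unadjusted p for the virus; marker lists are given as counts and sums. Members and lists were chosen with earlier results of these data known. The reference and the counts are on different builds, so coordinates are given only for the RefSeq promoter windows.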

Additional observations from a re-analysis of the deposited data

Results flagged for a closer look

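Groups of 4 libraries were screened for a library far from the others, by its gap to the nearest library over the range of the group; 70 groups were screened, and chance marks about 1 in 20. Hmox1 CPM in the GFP libraries was marked by replicate 2, at 851 CPM against 295 to 373 CPM, with a gap of 0.859 of the range. Its Has2 virus partner was also the highest of its group, at 779 CPM. Txnl1 CPM in the Has2 virus libraries had a gap of 0.835 and Chac1 CPM in the Has2 virus libraries one of 0.888.

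A difference of the virus effect between male and female pairs was called with the replicate block for 3 members: Slc7a11 at -1.35, Nqo1 at 0.503 and Prdx1 at 0.509. Of all genes 29.5% were called in that fit. With the trend of GC content and length removed, Prdx1 was at 0.92 (adjusted p = 0.00262), Nqo1 at 0.40 (adjusted p = 0.0552) and Slc7a11 at -0.32 (adjusted p = 0.164). Each sex was 1 series of preparations.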

How the results depend on the processing

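Under every alternative run, 0 members were called for the virus. The count of all genes called for the virus was 7 with DESeq2, 61 with DESeq2 and the replicate block, and 2 with the trend of GC content and length removed and the block; it was 0 to 1 when a library or pair was left out, 0 without replicate 1 with the block. Has2 was at 7.95 to 8.82 in those fits and missed the threshold in that last one, at 8.454 (adjusted p = 0.0844). The male minus female difference turned on the replicate block: it called 4470 genes and 3 members with the block in edgeR, 3577 and 3 with DESeq2 and the block, 4459 and 3 with limma-voom and the block, and 1700 and 2 with the trend removed and the block. Without the block DESeq2 called 681 genes and 0 members. Without replicates 1, 2, 3 or 4 the block fit called 4972, 4840, 2658 and 2353 genes and 4, 4, 1 and 1 members, and leaving out a library or pair without the block gave 0 to 7 genes and 0 members. The block changed no other call of a member.

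Signs turned for many values near 0, and for some further from it, such as Chac2, Txnl1 and Prdx1 with the trend removed. Their virus effects without removal were -0.31, -0.24 and -0.21. For the virus, Nfe2l2 was at -0.01714 with library totals and -0.002571 with a filter of 1 CPM. Gclc was at 0.01377 with RLE scaling, 0.02286 with no filter and 0.0138 with DESeq2. Gclm was at 0.01302, 0.02275 and 0.01303 under these, 0.006593 with DESeq2 and the block, and 0.176 and 0.1724 with the trend removed, without and with the block. Under that removal (without and with the block where both are given) Txnrd1 was at -0.01956 and -0.01943, Keap1 at -0.03625 and -0.03841, Chac2 at 0.1074 and 0.09526, Txnl1 at 0.08062 and 0.04838, Prdx1 at 0.07817 without the block, Idh1 at 0.001795 without it and Maff at -0.005958 with it. The sex differences became -0.1387 and -0.1889 for Hmox1, 0.6225 and 0.6187 for Gclm, -0.06689 and -0.06597 for Srxn1, and -0.1962 and -0.1987 for Gsr, which was at -0.005078 with library totals. With a library or pair left out, virus effects that changed sign ran from -0.10 to 0.11 (Nfe2l2), -0.20 to 0.57 (Hmox1), -0.19 to 0.14 (Gclc), -0.10 to 0.06669 (Gclm), -0.0829 to 0.0122 (Gsr), -0.85 to 0.03913 (Cybb), -0.11 to 0.44 (Ncf1) and -0.04463 to 0.57 (Chac1). Sex differences that did so ran from -0.46 to 0.10 (Nfe2l2), -0.64 to 1.03 (Hmox1), -0.25 to 0.0047 (Gclm), -0.23 to 0.10 (Txnrd1) and -0.12 to 0.17 (Gsr). With the block and a pair left out, signs changed for Nfe2l2 (-0.03567 without replicate 1), Gclc (0.1152 without replicate 4) and Gclm (0.01156 and 0.06588 without replicates 1 and 4), and sex differences for Gclm (0.006267) and Txnrd1 (0.07089) without replicate 4 and for Gsr (-0.009659) without replicate 2. The causes were not tested. The median standard error of a virus effect was 0.23 without and 0.14 with the block, which limits the size of change these libraries can show.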
